A study of Mus musculus with 12 samples.

Results

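The cytosolic ribosomal protein genes were measured here in a mouse model of local recurrence of oral cancer. They were taken by name from the annotation of the Illumina mouse WG-6 v2 array: every probe whose gene symbol begins with Rpl or Rps and a digit, or is Rplp0, Rplp1, Rplp2 or Rpsa, without the S6 kinases, the pseudogenes and the mitochondrial ribosomal proteins. This gave 96 probes for 65 genes among the 45135 probes of the array. After probes that were not brighter than the negative control probes on at least 2 arrays had been left out, 77 probes for 56 genes remained of 18454 probes for 10346 named genes. By the prefix of the symbol, 33 of the 56 genes were counted to the large subunit and 22 to the small subunit. Set apart was Rps19bp1, which has the name but is an Rps19-binding protein and no subunit. Whether each of the other genes encodes a subunit protein was not checked.

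The mice were of the athymic BALB/c-nu strain. SCC-7, a murine squamous cell carcinoma line, was implanted orthotopically in the floor of their mouth, the tumor that formed was taken out by microsurgery, and the tumor that grew back at the site was the recurrence. The 12 arrays held 5 primary tumors, the recurrence that followed each of them, and 2 samples of cultured SCC-7 cells. All tumors descend from 1 cell line, and the nude host lacks a thymus and has few mature T cells. Age and sex of the animals are not given in the sources used here. Each pair of a primary tumor and its recurrence is numbered as in the labels.

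Each ribosome is built from a large subunit, which forms the peptide bond, and a small subunit, which reads the messenger RNA, and nearly every protein in them is present in 1 copy. The messenger RNAs of these proteins are among the most abundant of a growing cell. Most of them start with a C followed by a run of pyrimidines (C or T in the gene), the 5′ terminal oligopyrimidine tract, through which the mTORC1 kinase and Larp1 control their translation together. The array measures the amount of the messenger RNA and not its translation.

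The tract is a feature described for these genes that the choice by name did not use. RefSeq promoter windows of 300 bases on the GRCm38.p6 build, from 250 before to 50 after the annotated start, were found for 47 of the 56 genes. A run of at least 6 bases C or T covered the annotated first base in 14 of the 47 (29.8%), against 8.48% of 27025 genes in the table. The run was counted to both sides of that base, so part of it can lie before the transcript. The first base was C in 15 of the 47 (31.9%), against 18.9% of all genes. An annotated start can lie some bases from the true one, so a run near it may be missed. The windows below are 8 examples of 30 bases, 20 before the start and 10 from it, with the run over the first base in capitals. They show genes that lay lower in the recurrence of pair 2 (Rpl34, Rpl31, Rpl38, Rplp2 and Rps26) and genes that did not (Rpl7a, Rps6). One of the steadiest genes (Rps9) is also shown. Most of these chosen examples carry the run, unlike most of the 47 genes. Also lower in pair 2 but not shown are Rps15, Rps25, Rps27l, Rpl36a, Rpl13a and Rpl26, with no run over the first base, and Rpl39, with 5 bases. Of the 13 genes at least 2-fold lower there with a window, 5 had the run of at least 6 bases. For a gene with several windows, the one with the longest run was taken.
Rpl34 (chr3:130730328-130730357, minus strand, 1 of 2 windows): ccgCCCCTTCCTTTTCCTCTTCCggggacg
Rpl31 (chr1:39367831-39367860, plus strand): cacctcttcctcctcgCCTCCCCgtgaccc
Rpl38 (chr11:114668560-114668589, plus strand): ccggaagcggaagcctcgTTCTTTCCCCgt
Rplp2 (chr7:141447631-141447660, plus strand): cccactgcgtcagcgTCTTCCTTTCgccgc
Rps26 (chr10:128626497-128626526, minus strand): agcgggtcgggcaagccgccggatcctctt
Rpl7a (chr2:26910787-26910816, plus strand): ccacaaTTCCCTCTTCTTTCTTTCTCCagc
Rps6 (chr4:86857358-86857387, minus strand): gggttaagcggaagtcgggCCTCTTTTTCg
Rps9 (chr7:3704021-3704050, plus strand): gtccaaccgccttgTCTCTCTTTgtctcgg
The run was 20 bases long in Rpl34 and 21 in Rpl7a, with most of each before the annotated start. No run covered the annotated first base of Rps26. Other motifs searched on both strands of the 300 bases were CCGGAA, the core bound by Ets factors such as GABP, in 25 of the 47 genes (53.2%, against 16.7% of all genes), GCCATNTT, the YY1 core, in 8 (17%, against 6.96%), and TATAAA, the TATA box, in 5 (10.6%, against 15.7%). None of these motifs contains another, and a match is a description of the letters only.

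Signals are given as log2 intensities after background correction on 943 probes taken as negative controls and quantile normalization of the 12 arrays. These were the entries without a probe identifier, except 11 whose median raw intensity was over 100. For a gene with several remaining probes, the brightest stood for the gene in medians and named values, while counts of calls are over probes. The ribosomal protein probes were among the brightest on the arrays, with 14 of the 50 brightest probes and 40 of the 200 brightest. Brightness also depends on the probe, so no order of abundance between the genes is read from it. Between 13711 and 17083 probes per array were brighter than the negative controls. The squamous markers Krt14, Trp63 and Krt17 were detected on both SCC-7 arrays, and Krt5 and Cdh1 on neither. Sfn, Krt6a and Dsg3 were not detected on enough arrays to remain. The tumors were mixed tissue: the mean level of 7 macrophage markers was 10.27 to 11.89 in the tumors and 7.14 to 7.18 in SCC-7. That of 10 salivary gland genes ran from 5.56 in recurrence 1 to 14.10 in primary tumor 1, with 7.53 and 7.61 in SCC-7. Of these genes, Aqp5 was higher in SCC-7 (13.26 and 13.25) than in all tumors. Bpifa2 was bright there (11.16 and 11.24) and Smgc near background (4.40 and 4.77), so the list does not mark gland tissue alone. Primary tumor 3 had the highest T and NK cell list (10.08, against 5.34 to 6.89 in the other tumors, 5 genes) and the highest Cd79b, the B cell marker that remained (13.34, against 5.73 to 9.23). In such bulk samples, fewer cells of a type and less RNA per cell cannot be told apart. Pair 1 stands apart from the other pairs. Across all probes, the deviations of its 2 tumors from their group means correlated at -0.37, against 0.03 to 0.36 in pairs 2 to 5. Across the member probes it was 0.31 in pair 1, -0.20 in pair 2 and 0.08 to 0.37 in the others. The opposite deviation of pair 1 over all probes was thus not seen in the members, and the median over the members is also given without it.

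Among the tumors, the steadiest member was Rplp1, which with Rplp2 forms the acidic stalk that recruits elongation factors. Its log2 intensities were 15, 14.88, 14.90, 14.95 and 15 in primary tumors 1 to 5, 14.95, 15, 14.87, 14.92 and 14.95 in recurrences 1 to 5, and 14.95 and 15 in the SCC-7 samples. The 3 groups overlapped fully and the SD over the 10 tumors was 0.049. Rpl41, the smallest large-subunit protein, and Rps9, a small-subunit protein near the messenger RNA entry, followed with SDs of 0.086 and 0.10. Rpl41 lay between 14.48 and 14.75 and Rps9 between 14.58 and 14.88 in all tumors. The largest SDs were those of Rpl3l (0.59), Rpl34 (0.57) and Rpl30 (0.55), both of the latter being large-subunit proteins. The median SD was 0.29 over the 56 genes, against 0.38 over all named genes. Within the 500 brightest probes it was 0.25 for the 43 ribosomal protein probes and 0.32 for the other 457. Of these 43 probes 40 were among the 200 brightest, so the sets were not matched in brightness. Quantile normalization sets the range that the brightest probes can take, and its part in these SDs was not tested.

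**Figure D1:**
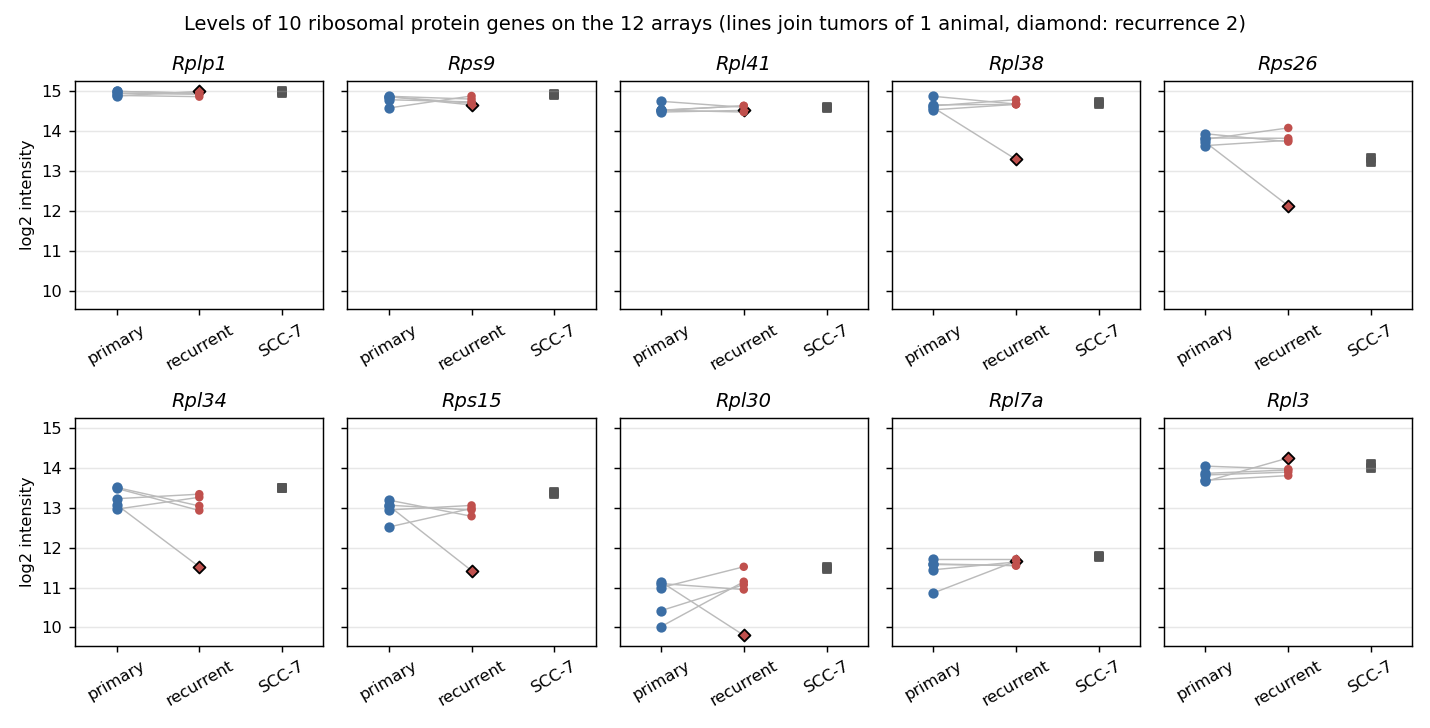
Log2 intensity (vertical axis) of 10 ribosomal protein genes in the 5 primary tumors (blue), the 5 recurrent tumors (red) and the 2 SCC-7 samples (grey squares), each point 1 array and each line 1 animal. Recurrence 2 (diamond) lies at 13.29 for Rpl38 and 12.13 for Rps26, below all other tumors. For Rplp1 it lies at 15, level with primary tumors 1 and 5, near the top of the intensity range, where a difference can be compressed.

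The first comparison asks whether these genes differ between a recurrence and the primary tumor of the same animal. None of the 77 probes was called at an adjusted p under 0.05 (limma, animal as a block, Benjamini-Hochberg over all probes), and the percentage called over all 18454 probes was 0 as well. The smallest adjusted p of any probe was 0.93. At an unadjusted p under 0.05, 0 ribosomal protein probes were higher, against 2.48% of all probes, and 1 was lower, against 0.78%. The 95% interval of the difference lay within 2-fold in either direction for 69 of the 77 probes (89.6%), against 77.4% of all probes. The study selected on altered expression in most pairs without giving a fold limit. With a limit of 2-fold set here, in 3 or more of the 5 pairs, 0 members were higher (0.997% of all probes) and 0 lower (0.341%).

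Rps25, a small-subunit protein needed for initiation at some viral internal entry sites, was the single probe lower at an unadjusted p under 0.05. Its log2 intensities were 12.20, 11.54, 11.84, 11.59 and 12.12 in primary tumors 1 to 5 and 11.62, 10.38, 11.60, 11.65 and 11.41 in recurrences 1 to 5. The recurrence lay lower in 4 of 5 pairs, and the groups overlapped. The log2 difference was -0.53 (SE 0.21, adjusted p = 0.93).

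The other 4 genes with the largest negative differences were Rplp2 with -0.47 (SE 0.24), Rpl34 with -0.43 (SE 0.28), Rps15, a small-subunit protein near the decoding centre, with -0.31 (SE 0.31), and Rpl39, a protein of the peptide exit tunnel, with -0.31 (SE 0.25). None passed the test, and in each of them recurrence 2 was the lowest of the 10 tumors. Without pair 2 the differences were -0.24 for Rplp2, -0.15 for Rpl34, 0.014 for Rps15 and -0.057 for Rpl39. The 5 largest positive differences were 0.29 (SE 0.26) for Rps19bp1, 0.24 (SE 0.15) for Rps7, 0.23 (SE 0.42) for Rpl3l, 0.22 (SE 0.17) for Rps6 and 0.19 (SE 0.18) for Rpl7a, with adjusted p of at least 0.93 in limma for each. Single pairs carried most of the difference in Rps19bp1, Rpl7a and Rpl3l. Without pair 3 Rps19bp1 was 0.0245, without pair 2 Rpl7a was 0.032, and without pair 5 Rpl3l was -0.0325. For Rps6 a difference of 0.11 was left without pair 1. Rps6, the small-subunit protein phosphorylated by the S6 kinases, had log2 intensities of 13.42, 14.09, 13.75, 13.78 and 14.06 in primary tumors 1 to 5 and 14.06, 14.22, 14.15, 13.89 and 13.86 in the recurrences. Recurrences 1 to 4 lay above their primary tumor and recurrence 5 below.

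The median log2 difference over the 56 genes was -0.094, against 0.017 over all named genes, and 40 of the 56 (71.4%) lay below 0, against 47.4% of all named genes. By subunit the median was -0.11 for the 33 large-subunit genes and -0.054 for the 22 small-subunit genes. Without pair 2 the median over the 56 genes was 0.030, and without each of the other pairs, pair 1 included, it lay between -0.13 and -0.11.

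**Figure D2:**
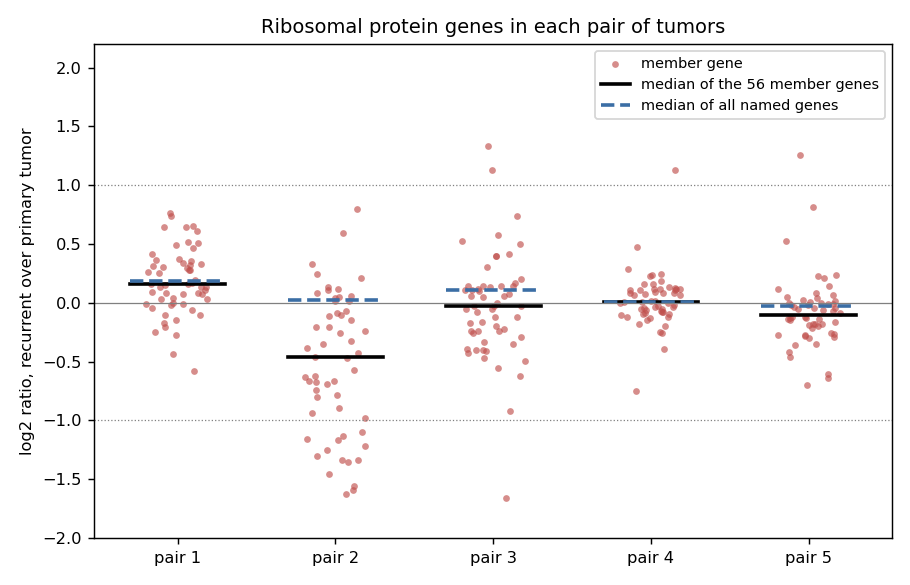
Log2 ratio of the recurrent over the primary tumor (vertical axis) in each of the 5 pairs for the 56 ribosomal protein genes (points), with their median (black) and the median of all named genes (blue dashes). Dotted lines mark a 2-fold difference. The median of the ribosomal protein genes is -0.46 in pair 2 and between -0.10 and 0.16 in the other pairs.

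The pairs differed from each other. For the 56 genes the median log2 ratio, recurrence over primary tumor, was 0.16, -0.46, -0.030, 0.0048 and -0.10 in pairs 1 to 5, against 0.19, 0.021, 0.11, 0.0059 and -0.032 for all named genes. Pair 2 thus held the lowest median, although the median of all genes there was 0.021. In that pair the recurrence showed a decrease of 2-fold or more at 19 of the 77 ribosomal protein probes (24.7%, against 4.56% of all probes). Under median scaling the count was 29 (37.7%, against 5.52%). In pairs 1, 3, 4 and 5 the counts were 0, 2, 0 and 0, where all probes fell that far in 8.65%, 10.6%, 1.59% and 1.24%, so that over the whole array such a decrease was more frequent in pairs 1 and 3 than in pair 2. The pair was singled out after its values were seen, each of its arrays is 1 sample, and no test applies to it. Recurrence 2 was the lowest of the 10 tumors for 35 of the 56 genes (62.5%, against 11.6% of all named genes).

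The decrease in recurrence 2 was uneven. Among the 56 genes 42 were lower and 14 higher than in primary tumor 2, with 19 within 0.25 of 0 on the log2 scale. The 14 genes at least 2-fold lower were Rps15 (-1.63), Rps26 (-1.59), Rpl34 (-1.56), Rps27l (-1.45), Rplp2 (-1.36), Rpl30 (-1.34), Rpl39 (-1.34), Rpl38 (-1.30), Rpl36a (-1.25), Rpl31 (-1.22), Rps25 (-1.17), Rpl35 (-1.16), Rpl13a (-1.13) and Rpl26 (-1.10). By subunit they comprised 10 of 33 large-subunit and 4 of 22 small-subunit genes. The highest ratios were 0.80 for Rpl7a and 0.59 for Rpl3, both proteins of the large subunit.

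Rps26, a small-subunit protein at the messenger RNA exit, had log2 intensities of 13.64, 13.72, 13.93, 13.80 and 13.83 in primary tumors 1 to 5, 13.77, 12.13, 13.74, 14.08 and 13.82 in recurrences 1 to 5, and 13.22 and 13.34 in SCC-7. The other 9 tumors lay within 0.5 of each other and above both SCC-7 samples, and recurrence 2 lay below all arrays. Rpl34 had 12.97, 13.08, 13.49, 13.23 and 13.51 in the primary tumors, 13.26, 11.52, 12.93, 13.34 and 13.05 in the recurrences, and 13.50 and 13.49 in SCC-7. Recurrence 2 was again the lowest array.

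Rpl38, a large-subunit protein required for translation of a group of Hox messenger RNAs in mouse embryos, was measured by 2 probes. The bright one lay at 14.63, 14.59, 14.54, 14.66 and 14.87 in the primary tumors, 14.79, 13.29, 14.67, 14.67 and 14.68 in the recurrences, and 14.72 and 14.67 in SCC-7. The dimmer one lay at 10.19, 11.27, 9.41, 11.24 and 11.43, then 11.14, 8.68, 10.79, 11.17 and 11.29, then 10.97 and 11.21. Both probes were lowest in recurrence 2, by -1.30 and -2.59 against primary tumor 2, but the dimmer one was also low in primary tumors 1 and 3, where the bright one was not. Second probes of Rpl30 (-1.25) and Rpl31 (-1.10) and dim probes of Rpl28 (-1.33) and Rps19 (-1.03) were at least 2-fold lower in recurrence 2 as well. Of the 21 probes beside the brightest one of a gene, 18 were lower in recurrence 2 and 3 higher. The share among such probes of all genes was not taken. Among the higher ones were a dim Rps13 probe at 0.80 (bright probe -0.69) and the dimmest Rps24 probe at 0.25 (bright probe -0.67). The probe that stands for Rps19, the small-subunit protein most often mutated in human Diamond-Blackfan anemia, was 0.89 log2 units lower, at 13.80 against 14.69.

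Rpl7a went the other way, with 11.45, 10.86, 11.58, 11.59 and 11.71 in the primary tumors, 11.64, 11.66, 11.55, 11.55 and 11.71 in the recurrences, and 11.77 and 11.78 in SCC-7. Here primary tumor 2 was the low array, and recurrence 2 lay among the others. Rpl3, near the peptidyl transferase centre, was highest of all tumors in recurrence 2, at 14.25 against 13.66 to 14.04. The mean level of recurrence 2 over the 56 genes was 12, against 12.44 to 12.65 in the others and 12.72 to 12.73 in SCC-7.

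Other genes of the translation apparatus were counted in pair 2 for comparison. Of the mitochondrial ribosomal protein genes, which are also nuclear genes, 12 of 71 were at least 2-fold lower (16.9%, median -0.29), with Mrps21 at -2.10 and Mrpl52 at -1.91. Of 14 genes for ribosome partners, mostly of the nascent chain and its translocation but with the chaperones Npm1 and Nap1l1 too, 2 were so, Sec61g at -2.30 and Sec61b at -1.47, both small subunits of the translocation channel. None of 22 initiation factors (median 0.32) and none of 8 elongation factors (median -0.0445) was. Over all named genes the share was 4.95%. Beside recurrence 2 stood the adipocyte marker Adipoq at 7.53, against 4.46 to 6.46 in the other tumors except primary tumor 1 (8.26), while Lep was at 5.10, among the lowest, and Plin1 and Fabp4 did not remain. The list mean of both genes was 6.32. Also high were the salivary gland genes at 12.28, where primary tumor 1 (14.10) and recurrence 3 (13.12) were higher. Their part in the decrease was not tested. RNA quality values and transcript lengths were not used here.

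**Figure D3:**
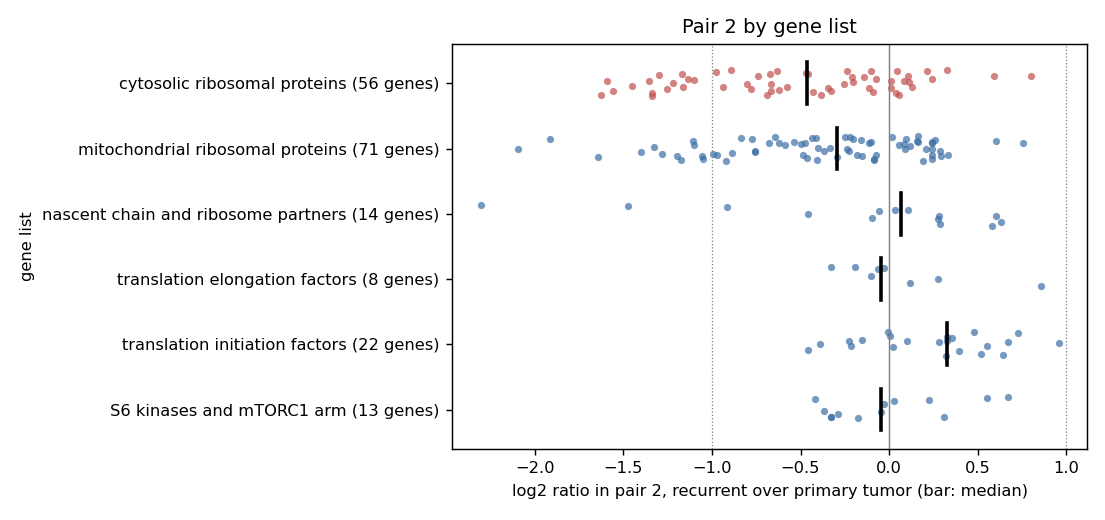
Log2 ratio of recurrence 2 over primary tumor 2 (horizontal axis) for the genes of 6 lists, each point 1 gene and each bar the median. Cytosolic ribosomal proteins (median -0.46), mitochondrial ribosomal proteins (median -0.29) and 2 of the 14 ribosome partners reach below the dotted line of 2-fold. Initiation factors have a median of 0.32.

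The promoter features were also counted in the genes at least 2-fold lower in pair 2. Of the 13 with a promoter window, 5 had the pyrimidine run (38.5%), against 9 of the 34 other members (26.5%). A first base C was found in 4 (30.8%), against 11 of 34 (32.4%), and CCGGAA in 10 (76.9%), against 15 of 34 (44.1%). These are counts of few genes chosen after their values were seen, with no test.

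The second comparison sets the tumors against the cultured cells from which they were grown. In primary tumors 0 of the 77 probes were called higher than in SCC-7 at an adjusted p under 0.05 (limma, 3 groups in 1 fit), against 7.62% of all probes, and 2 were called lower (2.6%), against 10% of all probes. With at least 2-fold added to the rule 1 was called, against 12.4%. For 50 of the 77 probes (64.9%) the 95% interval lay within 2-fold, against 36.5% of all probes. In recurrent tumors 0 were called higher, against 8.17%, and 1 was called lower (1.3%), against 9.73%. None was called with at least 2-fold added, against 11.9%, and for 41 probes (53.2%) the interval lay within 2-fold, against 36.5%. Both comparisons share the 2 SCC-7 arrays.

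The calls were Rps3 and Rps19bp1 in primary tumors and Rpl19 in recurrences. Rps3, a small-subunit protein at the messenger RNA entry that also acts in DNA repair, had at its brighter probe 11.11, 12.01, 11.87, 11.94 and 12.13 in primary tumors 1 to 5, 11.85, 11.92, 11.63, 12.02 and 11.83 in the recurrences, and 12.70 and 12.54 in SCC-7. All tumors lay below both SCC-7 samples. Its log2 difference from SCC-7 was -0.80 (SE 0.25, adjusted p = 0.046, limma) in primary tumors and -0.77 (SE 0.25, adjusted p = 0.053) in recurrences.

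The second Rps3 probe gave the opposite order. It lay at 12.28, 11.71, 13.30, 11.70 and 11.84 in the primary tumors, 11.77, 11.39, 12.15, 11.83 and 11.61 in the recurrences, and 10.87 and 11.06 in SCC-7. Here all tumors lay above both SCC-7 samples, with log2 differences of 1.20 (SE 0.39, adjusted p = 0.051, limma) and 0.79 (SE 0.39, adjusted p = 0.18). The annotation gives both probes the same transcript, so these data give no single direction for Rps3. The 3 arrays where the second probe was highest, primary tumors 3 and 1 and recurrence 3, were also the 3 highest for Cd79b (13.34, 9.23 and 8.42), whose part in this was not tested.

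**Figure D4:**
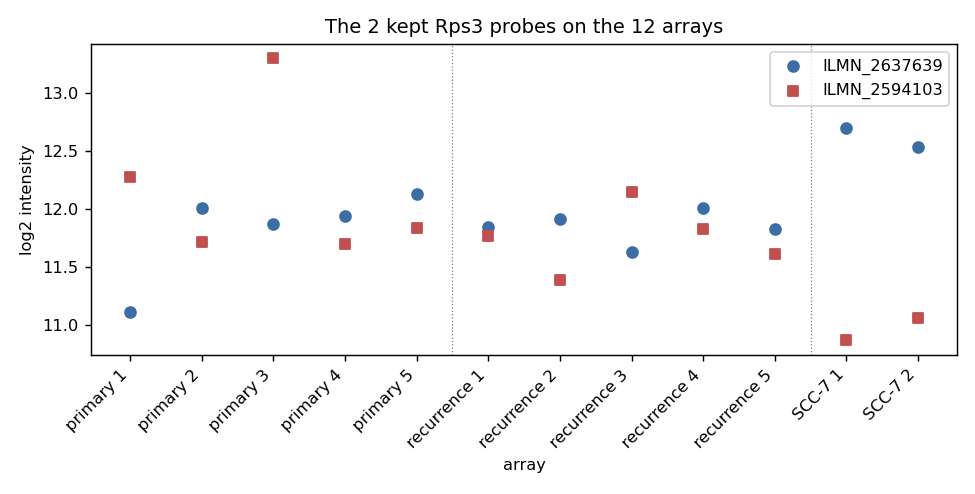
Log2 intensity (vertical axis) of the 2 Rps3 probes on the 12 arrays (horizontal axis, groups divided by dotted lines), each point 1 array. In SCC-7 the probe ILMN_2637639 (circles) lies at 12.54 to 12.70, above all tumors, and ILMN_2594103 (squares) at 10.87 to 11.06, below all tumors.

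Rps19bp1, whose product binds Rps19 and activates the deacetylase Sirt1, had 7.46, 7.90, 6.73, 8.20 and 8.28 in the primary tumors, 7.98, 7.70, 8.06, 8.0 and 8.26 in the recurrences, and 8.83 and 8.87 in SCC-7. Every tumor lay below SCC-7, and primary tumor 3 was the lowest. The log2 difference was -1.14 (SE 0.35, adjusted p = 0.046, limma) in primary tumors and -0.85 (SE 0.35, adjusted p = 0.12) in recurrences.

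Rpl19, a large-subunit protein that reaches across to the small subunit, had 11.75, 11.94, 12.25, 12 and 12.12 in the primary tumors, 12.09, 11.27, 11.83, 11.92 and 11.84 in the recurrences, and 12.46 and 12.57 in SCC-7. Again no tumor reached the SCC-7 samples. In recurrences the log2 difference was -0.73 (SE 0.22, adjusted p = 0.043, limma). Each of these 3 calls was lost when either SCC-7 array was left out, with adjusted p from 0.19 to 0.28, and under median scaling in place of quantile normalization, with adjusted p from 0.16 to 0.23.

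Rplp0, the base of the acidic stalk and a frequent reference gene in PCR, had 8.05, 8.74, 8.58, 9.31 and 9.51 in the primary tumors, 8.81, 8.99, 8.18, 9.26 and 9.38 in the recurrences, and 9.72 and 9.70 in SCC-7. All tumors lay below both SCC-7 samples, but the differences of -0.87 (SE 0.39, adjusted p = 0.14, limma) and -0.78 (SE 0.39, adjusted p = 0.19) did not pass the test. Its lowest arrays were primary tumor 1 and recurrence 3, which were the highest for the salivary gland genes (14.10 and 13.12), whose part was not tested. Rpl13a, another common reference gene and the factor that silences inflammatory messenger RNAs in the GAIT complex, ran from 10.05 to 11.53 in the tumors and lay at 11.29 and 11.37 in SCC-7. Rplp0 and Rpl13a had SDs over the tumors of 0.50 and 0.47, against 0.049 for Rplp1. By brightness their probes ranked 4402 and 1384, and that of Rplp1 ranked 2, where quantile normalization sets the range. These SDs therefore do not rank the genes as references.

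Further ones among the 5 largest negative differences of primary tumors from SCC-7 were Rpl30 with -0.76 (SE 0.42) and Rpl24 with -0.59 (SE 0.22), and in recurrences Rps15 with -0.73 (SE 0.38), which was -0.43 without recurrence 2. None of these passed the test. The largest positive differences did not pass either. In primary tumors they were Rps4l with 0.80 (SE 0.36), Rps26 with 0.51 (SE 0.41), Rps15a with 0.51 (SE 0.26), Rps24 with 0.28 (SE 0.40) and Rpl4 with 0.20 (SE 0.24). In recurrences they were Rps4l with 0.73 (SE 0.36), Rps15a with 0.40 (SE 0.26), Rps26 with 0.23 (SE 0.41), Rpl3l with 0.22 (SE 0.45) and Rps4x with 0.21 (SE 0.17). Rps15a, at 4.39 to 5.40 on all arrays, was near background and detected on 4 of 12. Without recurrence 2 the difference of Rps26 in recurrences was 0.58 and was called (adjusted p = 0.043, limma), so this single array decided that call.

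Over the 56 genes the median log2 difference from SCC-7 was -0.15 in primary tumors and -0.28 in recurrences, against -0.092 and -0.067 over all named genes, with 44 (78.6%) and 43 genes (76.8%) below 0, against 55.5% and 53.6% of all named genes. Without recurrence 2 the latter median was -0.15. Under median scaling the medians of all genes were 0.12 and 0.16 and those of the 56 genes -0.18 and -0.37. The tumors also hold host cells that the culture lacks, shown by the macrophage markers above, and their part in these medians was not tested.

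**Figure D5:**
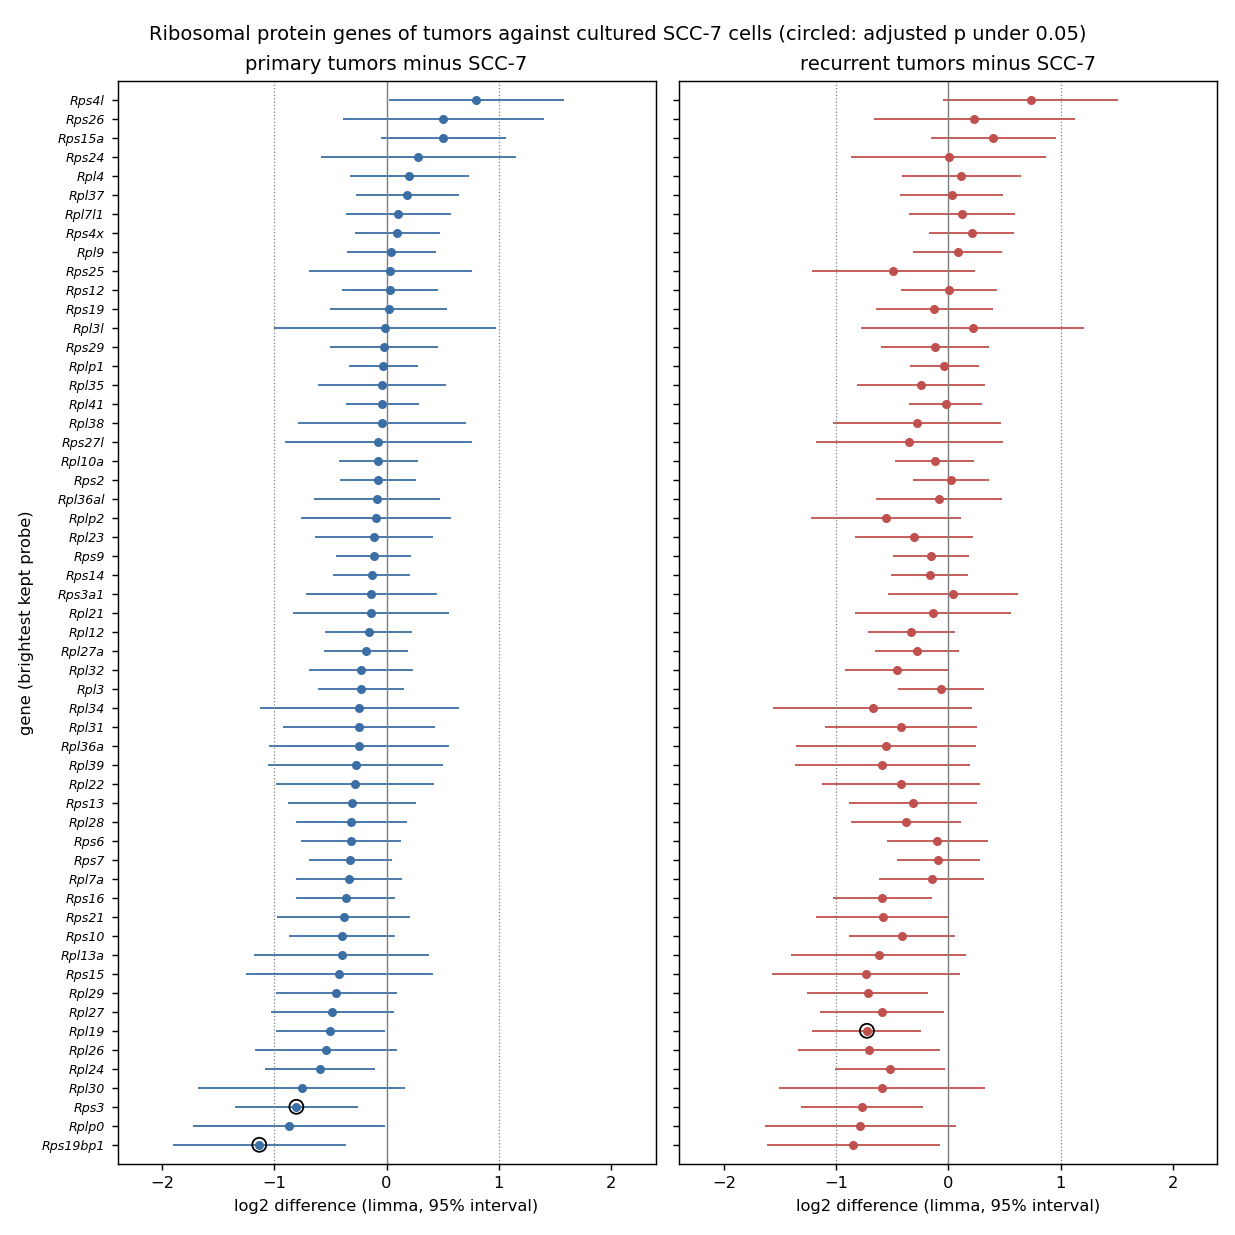
Log2 difference from SCC-7 (horizontal axis) with its 95% interval for the brightest probe of each of the 56 genes (rows), in primary tumors (left, n = 5) and recurrent tumors (right, n = 5), each against 2 SCC-7 samples. Circles mark calls at an adjusted p under 0.05: Rps3 (-0.80) and Rps19bp1 (-1.14) on the left and Rpl19 (-0.73) on the right.

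Paralogs that replace or duplicate a subunit protein were looked at with their parent genes. Rpl3l, the paralog of Rpl3 found in skeletal muscle and heart, was detected on 3 of 12 arrays. It lay at 4.91, 4.67, 6.08, 4.39 and 4.49 in primary tumors 1 to 5, 4.98, 4.99, 4.42, 5.52 and 5.74 in the recurrences, and 4.62 and 5.22 in SCC-7. The 3 highest arrays, primary tumor 3 and recurrences 5 and 4, were also the 3 highest for the mean of 6 skeletal muscle markers (8.62, 8.70 and 7.65), whose part was not tested. Rpl3 itself ran from 13.66 to 14.25 over the tumors.

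Rps4l, a mouse paralog of the X-linked Rps4x, was dim, at 5.21 to 6.35 in the tumors and 5.37 and 4.40 in SCC-7. Rps4x lay at 14.19 to 14.72 in the tumors and 14.32 and 14.53 in SCC-7. Rps27l, the Rps27 paralog induced by p53 in human cells, had 13.86, 13.84, 13.02, 13.82 and 13.81 in the primary tumors, 13.95, 12.39, 13.76, 13.70 and 13.17 in the recurrences, and 13.76 and 13.73 in SCC-7. Recurrence 2, primary tumor 3 and recurrence 5 were its low arrays. Rpl36al ran from 13.04 (recurrence 2) to 14.02 and its relative Rpl36a from 10.73 (recurrence 2) to 12.48. Near-identical sequence between members of this family and its many pseudogenes can let a probe bind more than 1 transcript. Rpl7l1, related to Rpl7, gave 10.29 to 10.99 in the tumors at its brighter probe, with 10.63 and 10.51 in SCC-7. Its dim probe gave 4.96 to 6.20 in the tumors and 6.19 and 6.33 in SCC-7, so the probes differed in sign against SCC-7.

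Probes of Rps24 disagreed as well. Its brightest probe was highest in primary tumors 3 (14.52) and 1 (14.30) and recurrence 3 (14.03), lowest in recurrence 2 (12.74), and at 13.51 and 13.50 in SCC-7. A dimmer one, annotated to another transcript of the gene, lay at 7.02 to 8.42 in the tumors and 8.79 and 8.68 in SCC-7, all tumors below the culture. The log2 differences of recurrences from SCC-7 were 0.00 (SE 0.40), -0.86 (SE 0.31) and, for the dimmest probe, 0.22 (SE 0.27), none passing the test. Of the 16 genes with several remaining probes, Rps3 and Rps24 had differences from SCC-7 more than 1 apart. The sign in primary tumors differed between probes in 5 (Rpl23, Rpl7l1, Rps24, Rps3 and Rps9). Some of these lay near 0: -0.12 (SE 0.15) and 0.029 (SE 0.21) for Rps9, and -0.22 (SE 0.17) to 0.19 (SE 0.23) for Rpl23. The share among all genes with several probes was not taken.

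Rpl23 and Rpl26 are large-subunit proteins tied to p53, Rpl23 through binding of Mdm2 and Rpl26 through p53 messenger RNA. Rpl23 ran from 14.04 to 14.62 in primary tumors, from 13.65 to 14.39 in recurrences and lay at 14.41 and 14.42 in SCC-7. Rpl26 was even in the primary tumors, at 12.58 to 12.65, and had 12.79, 11.53, 12.78, 12.49 and 12.63 in the recurrences, with 13.16 and 13.14 in SCC-7. All tumors lay below SCC-7 for Rpl26, without passing the test.

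Of the companion genes of the pathway, 0 were called between recurrent and primary tumors in any list. Against SCC-7 the initiation factor Eif6, which keeps the large subunit from joining too early, was lower in primary tumors (-0.99, SE 0.28, adjusted p = 0.031, limma), and Eif4g2, the factor of cap-independent initiation, was higher in primary tumors and recurrences (0.81 and 0.91). Eif2s2, the beta subunit of the factor that delivers the initiator tRNA, was higher in recurrences (0.93, adjusted p = 0.028, limma). Of the 22 initiation factors, primary tumors had 1 called higher and 1 lower, and recurrences had 2 called higher and 0 lower. Among all 10346 named genes, calls against SCC-7 numbered 972 upward and 967 downward for primary tumors. For recurrences these numbers were 1014 and 962. They are the background for each companion list, and whether any list exceeded it was not tested.

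Of the 8 elongation factors 0 were called in either group. Among 13 genes of the S6 kinase and mTORC1 arm, Tsc2, an inhibitor of mTORC1, was lower in both (-0.73 and -0.72) and Larp1, which binds the pyrimidine tract, was lower in recurrences (-0.86, adjusted p = 0.049, limma). These were the calls in that list. The 71 mitochondrial ribosomal protein genes gave 2 higher calls (Mrpl27 with 1.20 and Mrpl35 with 1.36) and 1 lower call (Mrpl38 with -0.69) for primary tumors. For recurrences they gave 1 higher call (Mrpl27 with 1.16) and 2 lower calls (Mrpl38 with -0.79, Mrpl55 with -0.87). Srp14, a protein of the signal recognition particle, was lower (-0.60) and Mdm4, a p53 inhibitor, higher (0.73) in recurrences.

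The 9 member genes without a probe above background on at least 2 arrays were Rpl14, Rpl17, Rpl22l1, Rpl39l, Rpl6, Rps20, Rps23, Rps23rg1 and Rpsa. Most of these encode core subunit proteins that any growing cell makes, and their probes were detected on 0 or 1 of the 12 arrays, SCC-7 included. Such a probe gives no level of its gene. The annotation named 64 of 89 current protein-coding genes of this name pattern, and Rpl5, Rpl11 and Rpl10 were among those not named by it and so not analysed here.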

How the data were processed

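Total RNA of 5 primary tumors, their 5 recurrences and 2 SCC-7 samples was amplified to biotin-labelled cRNA for the Illumina arrays. The authors deposited a mean bead intensity per probe and array, neither background-corrected nor normalized, and a detection p-value. Another table holds normalized intensity values, with a method not given in the sources used here. The deposited p-value columns were not used. Negative controls were inferred: entries without a probe identifier were taken as such unless their median raw intensity was over 100. Background was estimated by normexp on these 943 entries (offset 16). Arrays were quantile normalized and log2 transformed with limma 3.58.1 in R 4.3.3. A probe counted as detected where its one-sided p against the negative controls was under 0.01, and at least 2 of the 12 arrays had to detect it. Symbols come from the platform annotation (34773 probes with 1 symbol).

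The paired limma fit of recurrent against primary tumors had the animal as a fixed block. Each tumor group was set against SCC-7 in a fit of 3 groups. Benjamini-Hochberg adjustment ran over all 18454 probes. The sample labels of each recurrence name the primary tumor removed before it. Deviations of paired tumors correlated at -0.37, 0.03, 0.34, 0.36 and 0.17 in pairs 1 to 5. Whether the SCC-7 samples are separate cultures is not given, so their spread may be technical. With 2 SCC-7 arrays and 5 tumors per group, precision is limited.

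The members and lists were chosen with earlier results of these data known. Genes are named by a rule: the 5 largest differences per comparison and direction, paralogs with their parents, common reference and p53-linked members, the 3 largest and smallest SDs, genes whose probes disagree, and called genes of companion lists. The genes of pair 2 and the promoter examples were added after their values were seen.

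Tried as alternatives were the raw signal without background correction, scaling to the median, the deposited normalized table, other filters, tumor arrays normalized alone, a trended and robust variance, other uses of the block, the methods' t-test, and leaving out each pair or array. The fits were checked on simulated data. The sources do not give slides, and no slide effect was estimated. Plots were made in matplotlib 3.10.9.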

Additional observations from a re-analysis of the deposited data

Results flagged for a closer look

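Among 68 groups of 5 tumors searched (the named member genes and their mean level, primary and recurrent tumors apart), 10 held an array far from the other 4. For groups chosen without regard to their values chance gives about 1 in 20, which does not apply here, since many of these genes are named for large differences or SDs that the same arrays set. In 7 of the 10 that array was recurrence 2 at the low end. The mean log2 level of the 56 genes there was 12, with the next recurrence at 12.51. For single genes the log2 intensity of recurrence 2 and of the next recurrence were 11.53 and 12.49 for Rpl26, 11.52 and 12.93 for Rpl34, and 12.09 and 13.25 for Rpl39. They were 11.43 and 12.79 for Rps15, 10.38 and 11.41 for Rps25, and 12.13 and 13.74 for Rps26. These 7 results rest on the same array. In the primary tumors, Rpl41 was high in primary tumor 1 (14.75, next 14.53), Rps3 was low in primary tumor 1 at its brighter probe (11.11, next 11.87), and Rps27l was low in primary tumor 3 (13.02, next 13.81).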

How the results depend on the processing

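No member was called between recurrent and primary tumors under any alternative run, with no replicate block included. The methods' t-test gave 1 member higher and 0 lower at an unadjusted p under 0.05 (292 and 131 over all probes) and 0 over all probes after Benjamini-Hochberg. Against SCC-7, the count of members called higher in primary tumors went from 0 to 1 without background correction, under median scaling, with the authors' normalized intensities, with probes detected on all arrays, with a trended and robust variance, and with the animal as a random replicate block (correlation 0.16); the added probe was the second one of Rps3. Members called lower in primary tumors went from 2 to 0 under median scaling and without a filter on dim probes. In recurrences they went from 1 to 4 without background correction, 0 under median scaling, and 3 with the authors' normalized intensities and with the trended and robust variance. Leaving out 1 array at a time gave 0 to 2 members lower and 0 to 1 higher in primary tumors, and 0 to 2 lower and 0 to 1 higher in recurrences. Beside the SCC-7 arrays, Rps3 was lost without primary tumors 2 or 4 (adjusted p 0.052 and 0.056, limma), Rps19bp1 without primary tumors 1 or 2 (0.073 and 0.057), and Rpl19 without recurrences 3, 4 or 5 (0.072, 0.056 and 0.067). The count of probes at least 2-fold lower in pair 2, an alternative chosen after seeing the data, was 29 under median scaling and 17 to 19 otherwise. The share of members was 37.7% under median scaling, against 5.52% of all probes. It was 22.1% without background correction and with the authors' values, against 2.55% and 2.45%. Without a filter on dim probes it was 19.8%, against 1.87%, and with probes detected on all arrays 26.4%, against 4.91%. Signs turned for uncalled differences. The dimmest Rps24 probe in primary tumors against SCC-7 went from -0.045 to 0.35 under median scaling and 0.061 with the authors' values, with -0.18 to 0.068 without single arrays. In recurrences against SCC-7, Rps24 was -0.017 under median scaling and -0.13 to 0.19 without single arrays, and Rpl3l -0.085 to 0.51. Between recurrent and primary tumors, leaving out 1 pair gave -0.033 to 0.70 for Rpl3l, with -0.001 without pair 4, and -0.51 to 0.014 for Rps15, positive without pair 2. The cause was not tested. Many members lie near the top of the intensity range, where a difference can be compressed.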
